A study of Mus musculus with 10 samples.

Results

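Deubiquitinases are proteases that remove ubiquitin from proteins or trim chains of ubiquitin, and so reverse what ubiquitin ligases do. The largest family is that of the ubiquitin-specific proteases (Usp genes and Cyld), the OTU family includes Otub and Otud genes and Tnfaip3 (A20), and the UCH family includes Uchl3, Uchl5 and Bap1. In T cells they are known for ending NF-κB signals (A20 and CYLD), for setting the strength of T cell receptor signals, and, in regulatory T cells (Treg cells), for the stability of the Foxp3 protein. The genes described here were all rows of the normalized count table whose symbol starts with Usp and a digit, with Otud or with Otub, or is Cyld, Tnfaip3, Bap1, Uchl3 or Uchl5, leaving out the interferon gene Usp18. That gave 55 of 13252 genes, of which 53 passed the filter on low values and were tested, as were 10718 genes in all. One of them, Usp6nl, matches by name only: it encodes a GTPase-activating protein for a Rab GTPase of endosomes and is no protease.

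The libraries came from mouse Treg cells, 5 from CD4+RFP+GFP+ cells labelled Helios+ and 5 from CD4+RFP+GFP- cells labelled Helios-, with replicate numbers 1 to 5 in each group. Helios is the Ikaros family transcription factor encoded by Ikzf2, and both populations are Treg cells that carry the RFP signal. The design text of the series speaks of wild-type and Helios knockout cells, whereas the labels of the single samples describe sorted populations, and the groups follow those labels. The strain and age of the mice, their number and what RFP reports were not given in the sources used here. The p-values therefore refer to the spread among these 10 libraries, which may be technical.

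Ikzf2 was 21.3-fold higher in the means of Helios+ than of Helios- libraries, without overlap (exact two-sided permutation p = 0.0079, the smallest that 252 assignments can give). The populations were sorted and labelled by Helios, so this difference follows from the sort and only checks the labels. Recovered reads ranged from 4872348 to 6948692 per library. The summed level of 6 Treg markers was 15314 to 19767 normalized counts in the Helios- and 17519 to 20816 in the Helios+ libraries, with Il2ra and Ctla4 called higher. Markers of other cells were present too. The summed level of 8 B cell markers was 1779 to 2537 in Helios- and 1572 to 2224 in Helios+ libraries, with 1 of 8, Ebf1, called lower. That of 9 macrophage and dendritic cell markers was 232 to 424 and 337 to 647, with Csf1r called higher among 6 tested and Fcgr1 and Cd14 at 0 in some libraries. That of 7 CD8 and NK cell markers was 492 to 596 and 498 to 576, with Nkg7 called higher. The part of these cells in the values below was not tested, and in bulk samples fewer cells of a type and less RNA per cell cannot be told apart.

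Most deubiquitinase genes did not pass the test for a difference between the populations, and those that did were more often lower in Helios+ cells. Here a gene is said to rise or fall in Helios+ cells when limma's adjusted p was under 0.05. That p was taken over all 10718 genes, in the fit without the replicate number as a block. Of the 53 tested, 5 rose, 13 fell and 35 did not pass. The changes of those 35 ran from -0.26 to 0.47, so not passing does not mean a small change. Over all genes tested, 24.8% passed, 14.1% rising and 10.7% falling, while 9.43% of the deubiquitinase genes rose and 24.5% fell. The median change on the log2(normalized count + 1) scale was -0.11 for the deubiquitinase genes and -0.019 for all genes. Of the 53, 17 had a change above 0 and 36 a change below 0. The groups did not overlap for 15 of the 53, 4 higher and 11 lower in Helios+ cells, where 19.5% of all genes had groups that did not overlap, 11.2% higher and 8.37% lower. With the replicate number as a block, 6 were called higher and 19 lower, while 37.3% of all genes passed, 18.9% higher and 18.5% lower. Among genes with a mean of at least 50 normalized counts, 4 of 49 rose and 13 fell, while 24.9% of all such genes passed, 12.7% higher and 12.2% lower. By family, all 13 that fell were among the 42 tested genes with a Usp symbol and Cyld, of which 4 rose (Usp11, Usp27x and Usp54, and Usp6nl, which is no protease). In the OTU family 1 of 8 rose, and of the 3 UCH genes limma called 0 (0 also at p under 0.05 before adjustment, and with edgeR and DESeq2).

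**Figure D1:**
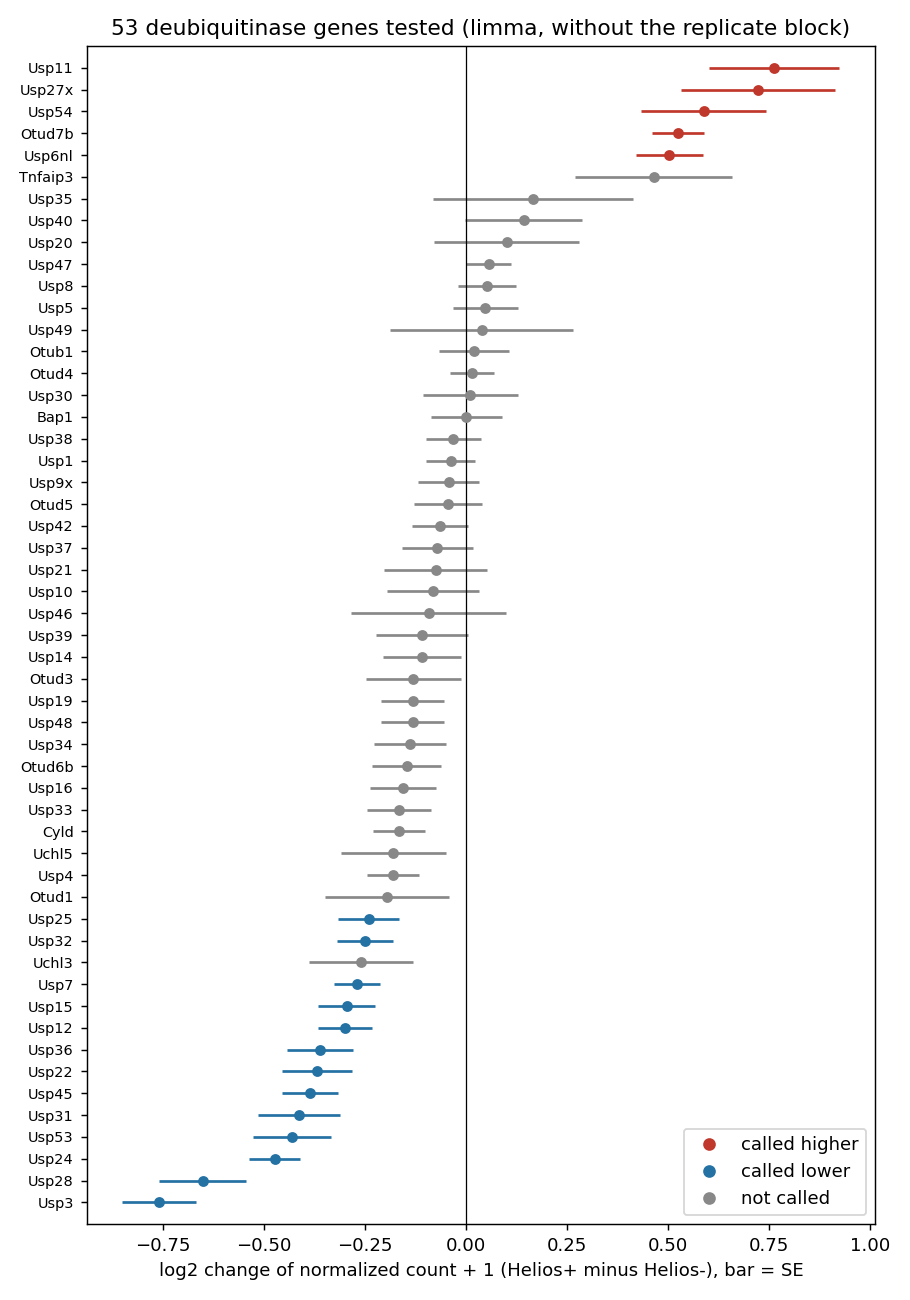
Change of each of the 53 tested genes on the log2(normalized count + 1) scale (Helios+ minus Helios-), with the standard error as a bar and the limma call as colour. The changes run from -0.76 for Usp3 to 0.76 for Usp11, with 5 genes called higher and 13 called lower.

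Tnfaip3 and Cyld, both known as brakes on NF-κB, had changes of opposite sign. A20, the product of Tnfaip3, edits and removes ubiquitin chains on signalling proteins below TNF and antigen receptors and is itself a known target of NF-κB. Tnfaip3 (chromosome 10, 19000910 to 19015657, minus strand, GRCm38) had 607, 1012, 606, 548 and 498 normalized counts in Helios- replicates 1 to 5. It had 836, 1303, 738, 812 and 782 in Helios+ replicates 1 to 5. Replicate 2 was the highest library of both groups, and Helios- replicate 2 lay above 4 of the 5 Helios+ libraries, so the groups overlapped. Within each of the 5 pairs of equal number the Helios+ library was higher, by 0.28 to 0.65 on the log2 scale. The change was 0.47 ± 0.19 (SE) and was not called by limma without the block (adjusted p = 0.107), while limma with the replicate block called it higher (adjusted p = 9.16e-07). Without Helios- replicate 2 the change was 0.63 and was called (limma adjusted p = 0.0058).

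CYLD removes linear and Lys63-linked ubiquitin chains from adaptors of the NF-κB pathway. Cyld (chromosome 8, 88697028 to 88751945, plus strand) had 1620.0, 1605, 1532, 1569 and 1663 normalized counts in the Helios- and 1272, 1437, 1415, 1468 and 1546 in the Helios+ replicates 1 to 5. Helios+ was the lower library in 5 of 5 pairs, and the groups overlapped only through Helios+ replicate 5, which lay above Helios- replicate 3. The change of -0.16 ± 0.063 was not called without the block (limma adjusted p = 0.0721) and was called lower with it (limma adjusted p = 0.0103). DESeq2 called it as well (adjusted p = 0.0456) and edgeR did not (adjusted p = 0.102).

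The bases before the transcription starts of Tnfaip3 and Cyld are shown because an NF-κB motif was found there in these members and in no other of the 44 that have a window. The motif searched was GGG, then any 2 bases, then TTTCC, on both strands, in the 250 bases before each start in RefSeq's promoter windows (GRCm38.p6). It was present in 1.41% of 32851 windows of all genes and in those of 2 of 44 deubiquitinase genes (4.55%). The 44 have 49 windows and are counted by gene, so the 2 shares differ in unit. Capitals mark the match, which stands here as its reverse complement and ends 2 bases before one of the starts of Tnfaip3 and 145 bases before that of Cyld. The Tnfaip3 stretch is chr10:19015411-19015440, minus strand, and the Cyld stretch is chr8:88696778-88697027, plus strand. The Tnfaip3 stretch lies inside the annotated gene (19000910 to 19015657). Of its 250-base window 110 bases are annotated exon, and of the 30 printed 0 are.
Tnfaip3: gtgactggaatttccatcGGAAATCCCCct
Cyld: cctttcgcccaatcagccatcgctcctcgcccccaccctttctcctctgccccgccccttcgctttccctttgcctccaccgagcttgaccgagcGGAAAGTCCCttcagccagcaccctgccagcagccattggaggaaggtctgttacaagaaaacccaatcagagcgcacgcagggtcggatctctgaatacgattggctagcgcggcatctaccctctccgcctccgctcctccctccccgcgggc
A match is a description of the letters only, and the change of the 2 genes with it had opposite signs. The motif can share bases with the Ikaros core motif TGGGAA used further on, and did not do so in these windows.

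Otud7b (Cezanne) had the smallest standard error of the 5 genes that rose. Its product is an OTU protease known to act on NF-κB adaptors and on the T cell receptor kinase Zap70. Otud7b (chromosome 3, 96104527 to 96161129, plus strand) had 350.2, 369, 333, 383 and 374 normalized counts in the Helios- libraries, and 521, 524, 517, 530.4 and 511 in Helios+ libraries, in the order of the replicates. Every Helios+ library lay above every Helios- library, and the 5 Helios+ values spanned a narrow range. The change was 0.53 ± 0.064 (limma adjusted p = 1.52e-05). Of the 9 tested members with a known part in NF-κB and innate signalling, only Otud7b rose and only Usp25 fell. That is 22.2% called, beside 24.8% of all genes. With the replicate block, 2 of the 9 were called higher and 3 lower, beside 18.9% and 18.5% of all genes. Here and below, a gene can be counted under more than 1 role. Usp25, which acts on adaptors of the IL-17 and Toll-like receptor pathways, had 1819 ± 163 normalized counts in the Helios- and 1538 ± 104 in the Helios+ libraries (SD, n = 5 each), a change of -0.24 ± 0.075 (limma adjusted p = 0.028). Its groups overlapped, and its call was lost in 7 of the 10 fits that each left out 1 library and with quantile normalization. Otud1, Otud4 and Otud5, OTU proteases of innate signalling, had changes of -0.19, 0.016 and -0.043, and none was called. Usp48, which acts on the NF-κB subunit RelA, had a change of -0.13 that was not called without the replicate block and was called lower with it (limma adjusted p = 0.249 and 0.0432). Without Helios- replicate 3 it was called in the fit with no block too, at -0.20 (limma adjusted p = 0.0335).

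Of 3 tested proteases reported to stabilize Foxp3, Usp7 and Usp22 fell in Helios+ cells, where 10.7% of all genes fell. USP7, USP21, USP22 and USP44 are known to remove ubiquitin from Foxp3 or to keep its level up. Usp44 was not among the 13252 genes with deposited values. Usp7 (chromosome 16, 8689595 to 8792308, minus strand) had 2103, 2069, 1918, 2069 and 2088 normalized counts in the Helios- and 1759, 1766, 1666, 1617 and 1693 in the Helios+ replicates 1 to 5. Every Helios+ library was below every Helios- library, with a change of -0.27 ± 0.058 (limma adjusted p = 0.00257). Usp22, the protease of the SAGA coactivator complex (chromosome 11, 61151785 to 61175055, minus strand), had 429.9, 429.7, 531, 508 and 511 normalized counts in the Helios- and 324, 385, 416, 368 and 372 in the Helios+ libraries. Its groups did not overlap either, and the change was -0.37 ± 0.087 (limma adjusted p = 0.00517). Usp21 had 105, 126, 132, 111 and 93.4 normalized counts in the Helios- and 98.5, 114, 114, 88.4 and 125 in the Helios+ libraries. The groups of Usp21 overlapped throughout, with a change of -0.074 ± 0.13 (limma adjusted p = 0.732). Foxp3 itself had 3526 ± 226 normalized counts in the Helios- and 3570 ± 201 in the Helios+ libraries (SD). Its change of 0.019 ± 0.068 was not called (limma adjusted p = 0.879). These are RNA levels, and the Foxp3 protein was not measured here.

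**Figure D2:**
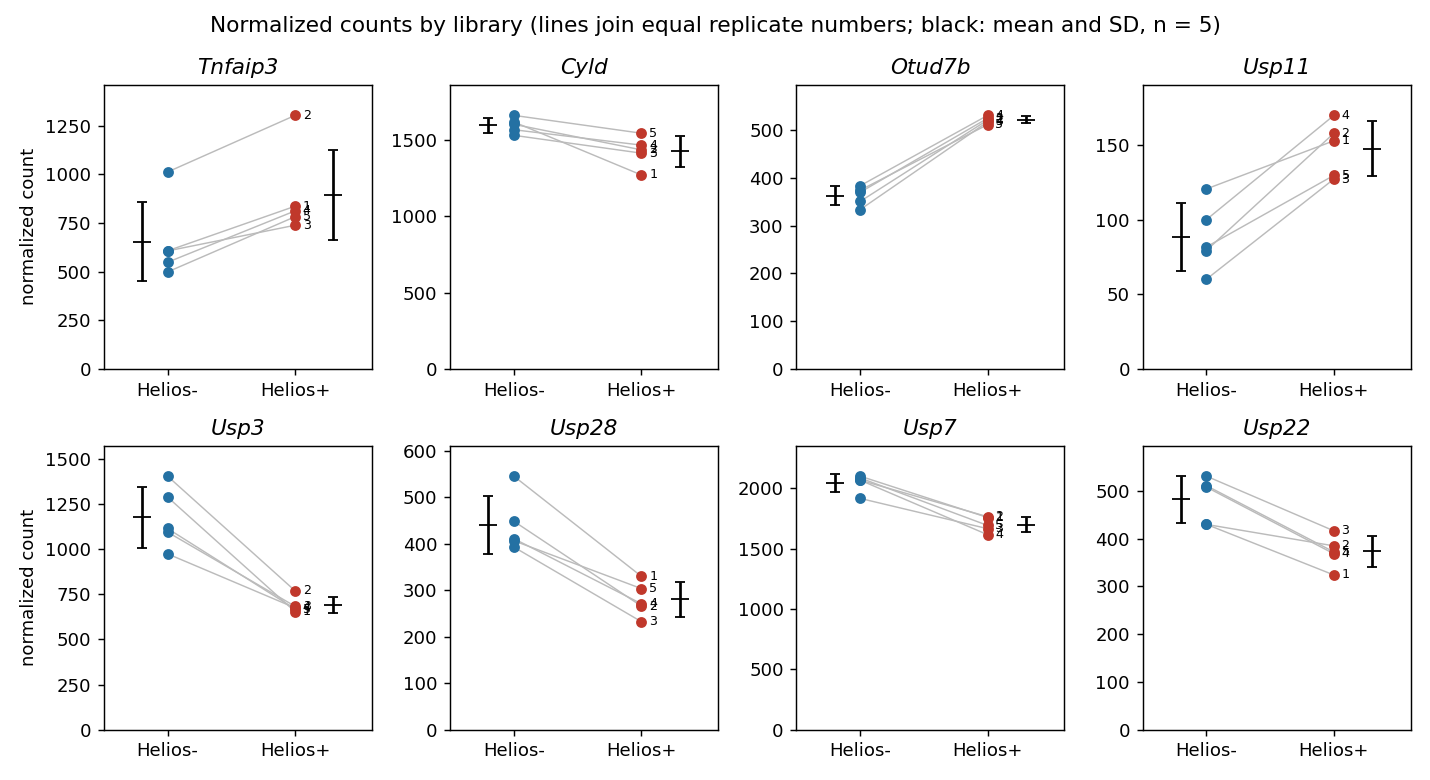
Normalized counts of 8 deubiquitinase genes in each library, from 0, with lines joining equal replicate numbers and the mean and SD (n = 5) in black. Tnfaip3 was highest in replicate 2 of both groups and higher in Helios+ in each pair, while the groups did not overlap for Otud7b, Usp11, Usp3, Usp28, Usp7 and Usp22.

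Of 10 tested proteases listed as acting on ubiquitin of histones H2A or H2B, Usp3, Usp22 and Usp36 fell and Usp27x rose. That is 40% called, beside 24.8% of all genes. With the replicate block, 1 of the 10 was called higher and 4 lower, beside 18.9% and 18.5% of all genes. The list was made by hand and may leave out other members that act on these histones. Usp3, which removes ubiquitin from H2A and H2B, had the largest decrease of the 53 tested deubiquitinase genes. Usp3 (chromosome 9, 66514637 to 66593142, minus strand) had 1289.7, 1406, 1096, 975 and 1115 normalized counts in the Helios- and 654, 769, 684, 675 and 669 in the Helios+ replicates 1 to 5. The lowest Helios- library was well above the highest Helios+ library, and the change was -0.76 ± 0.091, a 1.70-fold difference in means (limma adjusted p = 1.3e-05). Usp36, a protease of the nucleolus (chromosome 11, 118259651 to 118290244, minus strand), had 731, 706, 616, 751 and 675 in Helios- and 582, 585, 471, 582 and 495 in Helios+ libraries. Its groups did not overlap, with a change of -0.36 ± 0.082 (limma adjusted p = 0.00396). Usp27x, an X-linked relative of Usp22 that can take its place on H2B, was a low gene, with 22.3, 26.5, 18.6, 33.3 and 30.2 normalized counts in the Helios- and 53.4, 39.3, 39.3, 43.7 and 40.6 in the Helios+ libraries. It rose by 0.72 ± 0.19 with no overlap (limma adjusted p = 0.0106). Its mean lay under the 50 normalized counts set for naming, and it is named as 1 of the 5 that rose.

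Bap1, the UCH protease of the Polycomb repressive deubiquitinase complex, which acts on H2A, had 312, 387, 388, 334 and 306 normalized counts in the Helios- and 312, 342, 379, 335 and 355 in the Helios+ libraries. Its change of 0.0022 ± 0.088 was not called (limma adjusted p = 0.988). Usp16, an H2A protease, had a change of -0.15, was lower in Helios+ in 5 of 5 pairs, and was called only with the replicate block (limma adjusted p = 0.192 without and 0.0371 with it). Usp21, Usp42, Usp46 and Usp49 had changes from -0.091 to 0.04 and were not called. Usp49 shares 52.3% of its exon bases with other genes.

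Stretches before the start of Usp3, the tested gene with the largest decrease, and before a RefSeq start of Usp54, which rose, are shown. Capitals mark matches to TGGGAA, the core bound by factors of the Ikaros family, to which Helios belongs. Each match stands as its reverse complement. This core was present in 21.6% of all 250-base windows and in those of 10 of 44 deubiquitinase genes (22.7%). The other members with a match were Otub1, Otub2, Otud1, Tnfaip3, Usp16, Usp31, Usp40 and Usp49, of which Usp31 fell. The Usp3 stretch, chr9:66593143-66593365 on the minus strand, stops 27 bases before the RefSeq start where annotated exons begin. The Usp54 stretch is chr14:20618355-20618604 on the minus strand. It lies inside the annotated gene (20548912 to 20641063) and not before the outermost start.
Usp3: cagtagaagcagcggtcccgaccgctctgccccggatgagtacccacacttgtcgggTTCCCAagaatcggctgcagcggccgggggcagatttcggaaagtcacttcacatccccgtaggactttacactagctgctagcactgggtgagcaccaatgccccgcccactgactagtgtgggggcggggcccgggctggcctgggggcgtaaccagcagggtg
Usp54: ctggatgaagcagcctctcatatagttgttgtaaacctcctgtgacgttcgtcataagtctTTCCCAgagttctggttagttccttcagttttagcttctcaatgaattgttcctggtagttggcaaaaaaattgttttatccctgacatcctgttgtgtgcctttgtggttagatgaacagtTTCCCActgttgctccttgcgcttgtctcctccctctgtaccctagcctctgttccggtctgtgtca
The share of members with this core was close to that of all windows. Members are counted by gene (44 with 49 windows) and the rest by window, so the units differ. Of 4 further motifs searched the same way, the AP-1 motif TGANTCA was in the windows of 4 of 44 members (6.75% of all windows), the ETS motif CCGGAAGT in 3 (2.88%), the E2F motif TTTCCCGC in 1 (0.895%) and the CRE motif TGACGTCA in 0 (1.55%). These shares are descriptions of letters and say nothing of whether a factor binds.

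Of 8 tested proteases of replication, repair and the cell cycle, Usp28, Usp45 and Usp7 fell and 0 rose in limma (0 also before adjustment, and with edgeR and DESeq2). That is 37.5% called, beside 24.8% of all genes (14.1% rising and 10.7% falling). Usp28, known for stabilizing Myc and for its part in the p53 response (chromosome 9, 48985375 to 49042517, plus strand), had 546, 449, 393, 411 and 407 normalized counts in the Helios- and 330.1, 266, 232, 271 and 304 in the Helios+ replicates 1 to 5. All Helios+ libraries were below all Helios- libraries, with a change of -0.65 ± 0.11, a 1.57-fold difference in means (limma adjusted p = 0.000293). Usp45, which acts on a repair nuclease (chromosome 4, 21767156 to 21837872, plus strand), had 403, 383, 393, 363 and 368 in Helios- and 307, 310.3, 288, 278 and 278 in Helios+ libraries. The groups were apart, with a change of -0.39 ± 0.069 (limma adjusted p = 0.000611). Usp1, which removes ubiquitin from PCNA and Fancd2, and Usp37, a protease of the G1 to S transition, had changes of -0.037 and -0.07. Usp10, Usp47 and Otub1, with known parts in DNA damage responses, had changes of -0.08, 0.057 and 0.022. None of these 5 was called.

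Signalling proteases of the T cell receptor, TGF-β and Wnt pathways went both ways. Of 8 tested with a known part in T cell receptor or cytokine signalling, Otud7b rose and Usp12 and Usp15 fell. That is 37.5% called, beside 24.8% of all genes. With the replicate block, 1 of the 8 was called higher and 4 lower, beside 18.9% and 18.5% of all genes. Usp12, which with the cofactor Wdr48 acts on T cell receptor adaptors, had 587 ± 42.5 normalized counts in the Helios- and 476 ± 15.5 in the Helios+ libraries (SD, n = 5 each), a change of -0.30 ± 0.067 without overlap (limma adjusted p = 0.00355). Usp15, which restrains T cell activation through Mdm2 and acts on TGF-β receptors and Smads, had 881 ± 72.3 and 717 ± 41.1, a change of -0.29 ± 0.07 without overlap (limma adjusted p = 0.00567). Usp8, an endosomal protease needed for T cell homeostasis, Usp9x and Otub1 had changes of 0.053, -0.042 and 0.022 and were not called. Usp34, a protease of Wnt signalling and a large gene, had 3726 ± 539 and 3360.0 ± 127 normalized counts and was not called without the block (change -0.14, limma adjusted p = 0.298) and called lower with it (limma adjusted p = 0.0446). Without Helios- replicate 3 the change of Usp34 was -0.21 and was called with no block (limma adjusted p = 0.0478). Usp34 shares 11.6% of its exon bases with other genes.

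Usp11, Usp4 and Usp15 are close relatives that all act in TGF-β signalling, and their changes differed in sign. Usp11 had the largest increase of the 53 tested deubiquitinase genes. Usp11 (chromosome X, 20703906 to 20720539, plus strand) had 121, 79.4, 60.1, 100.04 and 81.7 normalized counts in the Helios- and 153, 158, 127, 170.0 and 129.8 in the Helios+ replicates 1 to 5. The groups did not overlap, and it rose by 0.76 ± 0.16, a 1.67-fold difference in means (limma adjusted p = 0.00243). Usp4 had 1062 ± 61.6 and 938 ± 55.2 normalized counts and a change of -0.18 ± 0.065, which was not called without the block (limma adjusted p = 0.0556) and was called lower with it (limma adjusted p = 0.00733) and by DESeq2 (adjusted p = 0.0383). It was also called with no block on leaving out Helios- replicate 1 or 2 or Helios+ replicate 1 (limma adjusted p = 0.047, 0.0414 and 0.0415). Per kb of exon, the mean level over all 10 libraries was 116 ± 9.93 for Usp4, 48.1 ± 6.17 for Usp15 and 24.9 ± 7.80 for Usp11 (SD, n = 10), so the member that rose was the lowest of these.

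Other related pairs were taken from general knowledge of these families with the values known and are given as descriptions. Some of them differed in sign and others did not. Usp22 fell by 0.37 and its relative Usp27x rose by 0.72. Usp53 and Usp54, junction-associated proteins long grouped as lacking protease activity, had changes of -0.43 ± 0.097 and 0.59 ± 0.15 (limma adjusted p = 0.00385 and 0.0102). Usp53 (chromosome 3, 122931493 to 122984510, minus strand) had 514, 472, 421, 358 and 387 normalized counts in the Helios- and 310.2, 345, 298, 295 and 337 in the Helios+ libraries, without overlap. Usp54 (chromosome 14, 20548912 to 20641063, minus strand) had 91.4, 61.4, 66.6, 64.1 and 50.6 in Helios- and 122, 102, 89.7, 99.1 and 86.9 in Helios+ libraries, and its groups overlapped through Helios- replicate 1. Usp25 and Usp28 both fell. Usp24 fell by 0.47 while Usp9x, a relative, had a change of -0.042 that was not called. In the pairs Usp12 and Usp46, Usp16 and Usp45, Usp36 and Usp42, and Usp7 and Usp47, 1 member fell and the other was not called. The difference between the members of a pair was not tested.

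**Figure D3:**
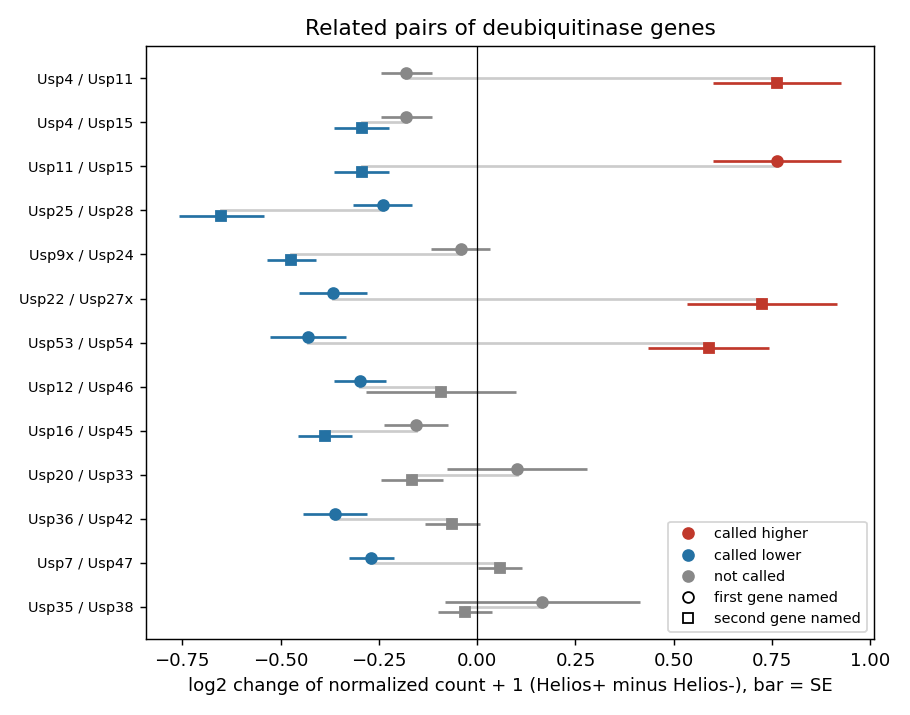
Change on the log2(normalized count + 1) scale (Helios+ minus Helios-) with its standard error for 13 pairs of related genes, the first named as a circle and the second as a square, coloured by limma call. In 3 pairs, Usp11 and Usp15, Usp22 and Usp27x, and Usp53 and Usp54, 1 member was called higher and the other lower.

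Usp24 and Usp31, on none of the role lists, fell as well. Usp24 (chromosome 4, 106316213 to 106441322, plus strand) had 3136, 3309.8, 2851, 2918 and 2888 normalized counts in the Helios- and 2098, 2282, 2169.9, 2196 and 2124 in the Helios+ libraries. The groups lay far apart relative to their spread, with a change of -0.47 ± 0.063 (limma adjusted p = 3.72e-05). Usp31 (chromosome 7, 121642021 to 121707253, minus strand) had 392, 418, 439, 301 and 396 in Helios- and 305, 286, 331, 263 and 270.0 in Helios+ libraries. Helios- replicate 4 lay inside the range of the Helios+ libraries, and the change was -0.41 ± 0.10 (limma adjusted p = 0.0072). The other members on no role list, Usp38, Usp40, Otud3 and Otud6b, had changes from -0.15 to 0.14 and were not called.

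Among 8 tested members of membranes and organelles, Usp6nl rose and Usp32 fell (25% called, beside 24.8% of all genes). Usp6nl (chromosome 2, 6322667 to 6446390, plus strand) had 281, 235, 254, 251 and 272 normalized counts in the Helios- and 325, 396, 376, 342 and 399.9 in the Helios+ libraries. Every Helios+ library was above every Helios- library, and it rose by 0.50 ± 0.083 (limma adjusted p = 0.000289). Usp32, a protease of the Golgi and endosomes, had 638 ± 50.9 and 536 ± 23.3 normalized counts, a change of -0.25 ± 0.069 without overlap (limma adjusted p = 0.0153). Usp19 (endoplasmic reticulum), Usp30 (mitochondria), Usp20 and Usp35 had changes from -0.13 to 0.17 and were not called. Usp33, a relative of Usp20, had a change of -0.16 that was called only with the block (limma adjusted p = 0.15 without and 0.033 with it), and Usp33 shares 24.4% of its exon bases with other genes.

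Proteases of the proteasome and of ubiquitin recycling did not pass the test. Of Usp14 and Uchl5, which sit on the proteasome, and Uchl3 and Usp5, which recycle ubiquitin, limma called 0 (0 also at p under 0.05 before adjustment, and with edgeR and DESeq2). With 4 genes, and 24.8% of all genes called, that count says little of the role. The changes of the 4 were -0.11, -0.18, -0.26 and 0.049. Usp39, a splicing factor without protease activity, had a change of -0.11 and was not called.

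By level per exon length, Usp25 stood first, with a mean of 323 ± 37.8 normalized counts per kb of exon over the 10 libraries (SD, n = 10). Usp8 (245 ± 18.6), Usp7 (241 ± 25.1), Usp24 (210.3 ± 37.8) and Usp34 (192 ± 22.6) came next. Usp8 and Usp7 differed by less than their SDs, as did Usp24 and Usp34, whereas Usp25 lay above Usp8, and Usp7 above Usp24, by more than the SD of at least 1 of the pair. The order below Usp25 was not the same in each group: Usp7 (263.9), Usp24 (244.6), Usp8 (240.4) and Usp34 (201.9) in Helios-, and Usp8 (249.0), Usp7 (218.9), Usp34 (182.1) and Usp24 (176.0) in Helios+ libraries. Cyld stood in place 12 with 120.3 ± 9.27, Tnfaip3 in place 16 with 107 ± 33.5, and Bap1 in place 25 with 73.7 ± 6.70. The lowest tested were Usp49, Usp46 and Usp35, at 5.37, 5.53 and 6.27 per kb, again within their SDs of each other. The 5 genes that rose stood in places 34 to 49 of 55, and the 13 that fell in places 1 to 40. Exon length is that of all annotated exons together, so genes with long untranslated exons come out lower.

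**Figure D4:**
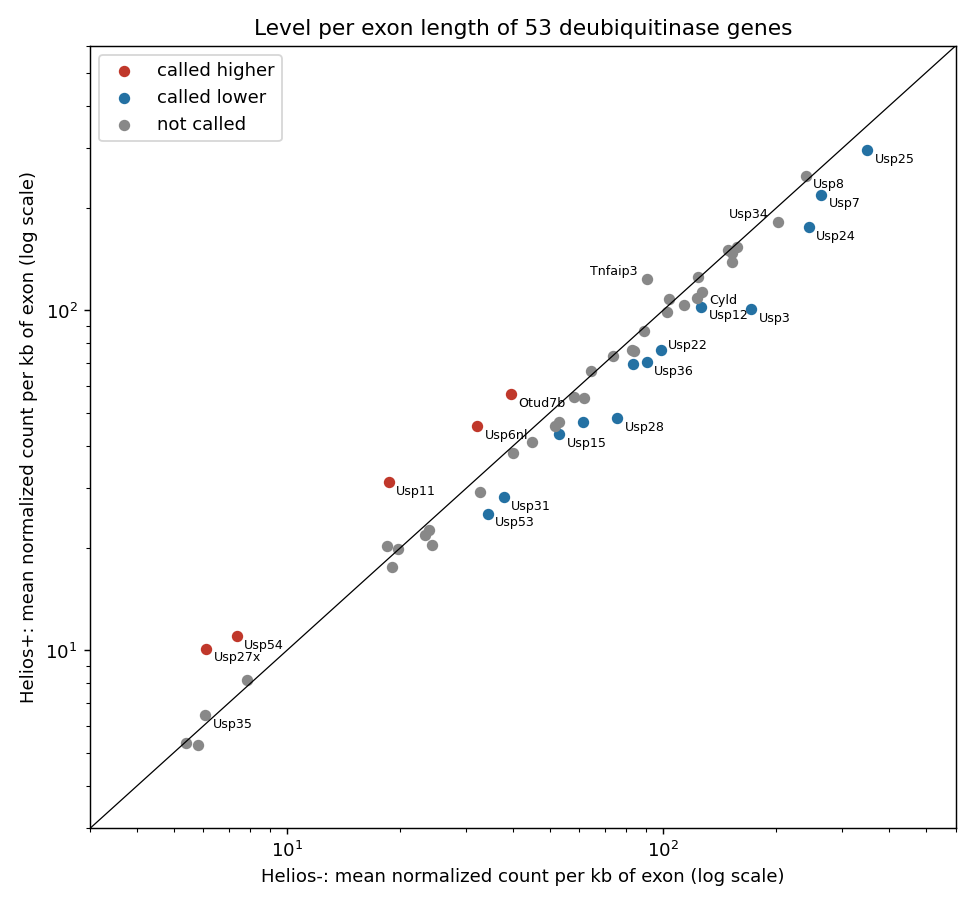
Mean normalized count per kb of exon in Helios- (x) and Helios+ libraries (y) for the 53 tested genes, both on log scales, coloured by limma call, with equality as a line. Usp25 is the highest in both groups, at 349.7 and 296 per kb, and the 5 genes called higher have at most 56.7 per kb.

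Otub2 and Usp2 had means under 10 normalized counts and were not tested with the other genes. Otub2, a relative of Otub1, had 4.37 ± 1.80 normalized counts in the Helios- and 8.65 ± 2.10 in the Helios+ libraries (SD, n = 5 each), with overlap. Usp2, a protease known for its circadian rhythm, had 4.69, 15.9, 13.1, 10.3 and 15.6 in Helios- and 4.19, 4.18, 5.13, 3.89 and 5.80 in Helios+ libraries. Helios+ was lower in 5 of 5 pairs for Usp2, and the groups overlapped through Helios- replicate 1. Without the filter on low values, limma called Usp2 lower (adjusted p = 0.0274) and did not call Otub2 (adjusted p = 0.0736).

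Among other genes of the pathway, 13.6% of further deubiquitinases, 24.0% of deubiquitinase cofactors and 13.6% of ubiquitin and ligase genes passed the test, beside 24.8% of all genes (14.1% higher and 10.7% lower). Of 22 tested deubiquitinases outside the rule, 1 rose and 2 fell, with a median change of -0.065. Stambp and Stambpl1, metalloproteases that cut Lys63-linked chains at endosomes, differed in sign: Stambp had 73.5 ± 6.59 and 116 ± 25.7 normalized counts and rose by 0.63 ± 0.15, while Stambpl1 had 444 ± 21.9 and 326 ± 24.7 and a change of -0.44 ± 0.073. Fam63b (MINDY2) fell by 0.19, a call lost in 8 of the 10 fits that left out 1 library, with no filter on low values, with TMM scaling, with quantile normalization and with edgeR (adjusted p from 0.0531 to 0.113 over these fits). Of 25 cofactors tested, 3 rose and 3 fell, with a median of -0.038. Asxl1, the Bap1 partner, rose by 0.33 ± 0.062, and Tnip1, the A20 partner ABIN1, by 0.25 ± 0.063, while the Bap1-associated factor Foxk1 had a change of -0.35 ± 0.057 (limma adjusted p = 0.000927, 0.00776 and 0.00024). Of 22 genes of ubiquitin, its activating enzymes and signalling ligases, 2 rose and 1 fell, with a median of 0.0056. Ndfip1, an activator of the ligase Itch, rose by 0.57 ± 0.088 and Traf2 by 0.37 ± 0.08, and the ligase Cblb had a change of -0.23 ± 0.079 (limma adjusted p = 0.000171, 0.00307 and 0.0464), which lost its call in 6 of the 10 fits that left out 1 library, with quantile normalization and with edgeR. Itch itself, counted among the cofactors, fell, with a change of -0.24 ± 0.073 (limma adjusted p = 0.024). That call was lost in 4 of the 10 fits that left out 1 library.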

How the data were processed

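The authors deposited 1 table of normalized counts, a signal that is never negative, for 13252 genes in 10 libraries. Per the labels' protocols, total RNA libraries were made with a stranded kit for picogram input. The submitters' processing notes name mm10, HISAT2 2.0.4, HTSeq and DESeq2. The annotation and strand setting were not given in the sources used here. In every library 100% of the deposited values were whole multiples of the smallest value above 0 (tolerance 0.001), which gave whole reads.

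Genes with a mean of at least 10 normalized counts were tested with limma 3.58.1 (R 4.3.3, trend and robust) on log2(normalized count + 1), which understates changes of low genes, with Benjamini-Hochberg adjustment over all genes tested. edgeR 4.0.16 and DESeq2 1.42.0 on recovered reads, other pseudocounts, filters and scalings, and leaving out each library were alternatives.

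Equal replicate numbers were taken to pair samples, since deviations from group means correlated across genes at 0.48, 0.19, 0.39, 0.16 and 0.15 for numbers 1 to 5, each above 0.1, while libraries of unequal numbers reached at most 0.12. The block was kept as an alternative, so the main calls and the shares by role leave this pairing out. For 7 deubiquitinase genes not called in the main fit, the block gave a call.

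Members and lists were chosen with earlier results of these data known. Values in every library are given for Tnfaip3, Cyld, Bap1, Usp7, Usp21, Usp22 and, among members with an adjusted p under 0.05 and a mean of at least 50, up to 8 with the largest changes in each direction (4 higher and 8 lower), and for Usp27x and Usp2, which were chosen after their values were seen. From each pathway list the 3 called genes with the smallest p are named. Positions and exon lengths are from GENCODE M21 (GRCm38). Shared exon bases were counted on either strand, and Usp14 (26.0%) and Usp38 (20.5%) had them too. The largest overlap was with a gene on the other strand for Usp14, Usp33, Usp34 and Usp38. For Usp49 it was with a gene on the same strand. A planned comparison of members by protein identity was not run.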

Additional observations from a re-analysis of the deposited data

Results flagged for a closer look

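Of 106 groups of 5 libraries examined (53 genes, both populations), 7 held a library set apart from the other 4 by more than Dixon's 95% limit. Chance flags about 1 in 20 groups. In Tnfaip3, replicate 2 was apart in both populations, at 1012 normalized counts in Helios- against 498 to 607 in the others, and at 1303 in Helios+ against 738 to 836. In Otud5, replicate 1 was apart in both, at 652 against 481 to 528 in Helios- and 557 against 497 to 512 in Helios+. Otub1 was low in Helios- replicate 1, at 262 against 317 to 339. Usp3 was high in Helios+ replicate 2, at 769 against 654 to 684, and this library was still below every Helios- library. Usp7 was low in Helios- replicate 3, at 1918 against 2069 to 2103, and this library was still above every Helios+ library.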

How the results depend on the processing

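With the replicate block, 1979 genes were called lower in all, against 1143 without it, and 7 deubiquitinase genes gained a call: Tnfaip3 higher, and Cyld, Usp4, Usp16, Usp33, Usp34 and Usp48 lower. No deubiquitinase gene lost its call with the block. Permuted within pairs, Ikzf2 had a change of 4.42 and an exact p of 0.0625, the smallest that 5 pairs can give. Over the other alternatives, counts of deubiquitinase genes stayed between 4 and 6 higher and between 12 and 15 lower, and their median change lay between -0.13 and -0.087. When single libraries were left out, 5 to 6 were called higher and 12 to 14 lower. Of the 18 called genes, 17 were called in all 10 of these fits, the exception being Usp25 (quantile normalization also ended its call, adjusted p = 0.113), and edgeR and DESeq2 called all 18. The change of Bap1 (0.0022) turned negative in 5 of these fits, at -0.033, -0.0076 and -0.040 on leaving out Helios- replicates 1, 4 and 5, and at -0.033 and -0.0088 on leaving out Helios+ replicates 3 and 5, and was 0.046 at most. Depth limits Otub2 and Usp2, with 65 and 83 recovered reads over all libraries.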
